A study of Mus musculus with 3 samples.

Results

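The collagen genes of the mouse were described across 3 kinds of cardiac cell by messenger RNA sequencing. The family was taken as every gene of the deposited table whose symbol reads Col, a number, the letter a and a number, which gave 44 of 18245 genes. They were placed in 3 classes, namely 11 fibrillar collagens, 8 basement membrane collagens and 25 others.

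The 3 kinds of cell came from C57BL/6 mice and all carry the label of ventricle epicardium as their tissue, although for pEpiC the methods describe digestion of the dissected heart. Cardiosphere-derived cells (CDC) were obtained from peeled epicardium of 6-week-old mice, which was grown as explants, passed through floating spheres and expanded as fibroblast-like cells to passage 3 on fibronectin in 20% serum. CDC-EpiC is an epithelial clone that arose when CDC were treated with SB-431542 (10 µM, 2 weeks), which blocks the kinase of type I TGF-beta receptors, and that was picked in a cloning cylinder and freed of mesenchymal cells by timed trypsin digestion. Primary epicardial cells (pEpiC) were released by enzymes from hearts of mice aged 6 to 8 weeks and grown to passage 3 on gelatin in 10% serum. CDC and pEpiC therefore differed in isolation, coating and medium as well as in origin, and the inhibitor, the clonal selection and the picking of CDC-EpiC cannot be told apart.

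Collagens are made of 3 chains wound into a triple helix, which may be alike or different. Fibrillar collagens such as types I and III form the tensile fibres of the interstitium, whereas type IV collagen forms the meshwork under epithelia, endothelia and muscle. Fibril-associated collagens sit on the surface of fibrils, type VI forms beaded filaments near basement membranes, and type VIII forms short-chain networks. The epicardium rests on a basement membrane, and cells that leave it as fibroblasts are known for making fibrillar collagen.

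Each kind had 3 libraries of 22008833 to 22756045 expected counts, the deposited estimates of reads per gene. The labels speak of 3 separate samples of each kind, the methods of fewer biological replicates per condition, and neither ties a library to an animal or culture, so p-values measure only the spread between these libraries, which may be technical, and the 3 CDC-EpiC libraries are all of 1 clone. Among the 15 most abundant collagen genes, CDC library 2 was the lowest CDC library for 15 and CDC-EpiC library 1 the lowest of its kind for 14. CDC libraries 1 and 2 also held transcripts of blood and liver genes at a summed 238 and 343 TPM against 30.9 in CDC library 3. The cardiomyocyte gene Myh6 had 191 and 190 counts in the same 2 libraries and 0 in CDC library 3. Values without each library are given where a call depended on it, and those without CDC libraries 1 and 2 together follow the gene lists. In bulk RNA, fewer cells of a type and less RNA per cell cannot be told apart.

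Of the 44 genes, 27 reached a mean of 1 TPM (transcripts scaled to a fixed library total, a level corrected for transcript length) in at least 1 kind of cell, and 15 reached 50 TPM. All 8 basement membrane collagens, 9 of 11 fibrillar and 10 of 25 other collagens were among the 27. In CDC, Col1a1 led at 1574 ± 239 TPM (SD, n = 3), followed by Col1a2 at 1313 ± 236 TPM and Col5a2 at 543 ± 54.6 TPM. In CDC-EpiC, Col1a2 led at 1175 ± 145 TPM, Col6a1 came next at 793 ± 46.0 TPM and Col1a1 was at 538 ± 66.3 TPM. In pEpiC, Col1a2 was at 4588 ± 262 TPM, Col1a1 at 4475 ± 370 TPM and Col3a1 at 3880 ± 134 TPM. The order of the 2 leading genes in pEpiC was within their spread.

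**Figure D1:**
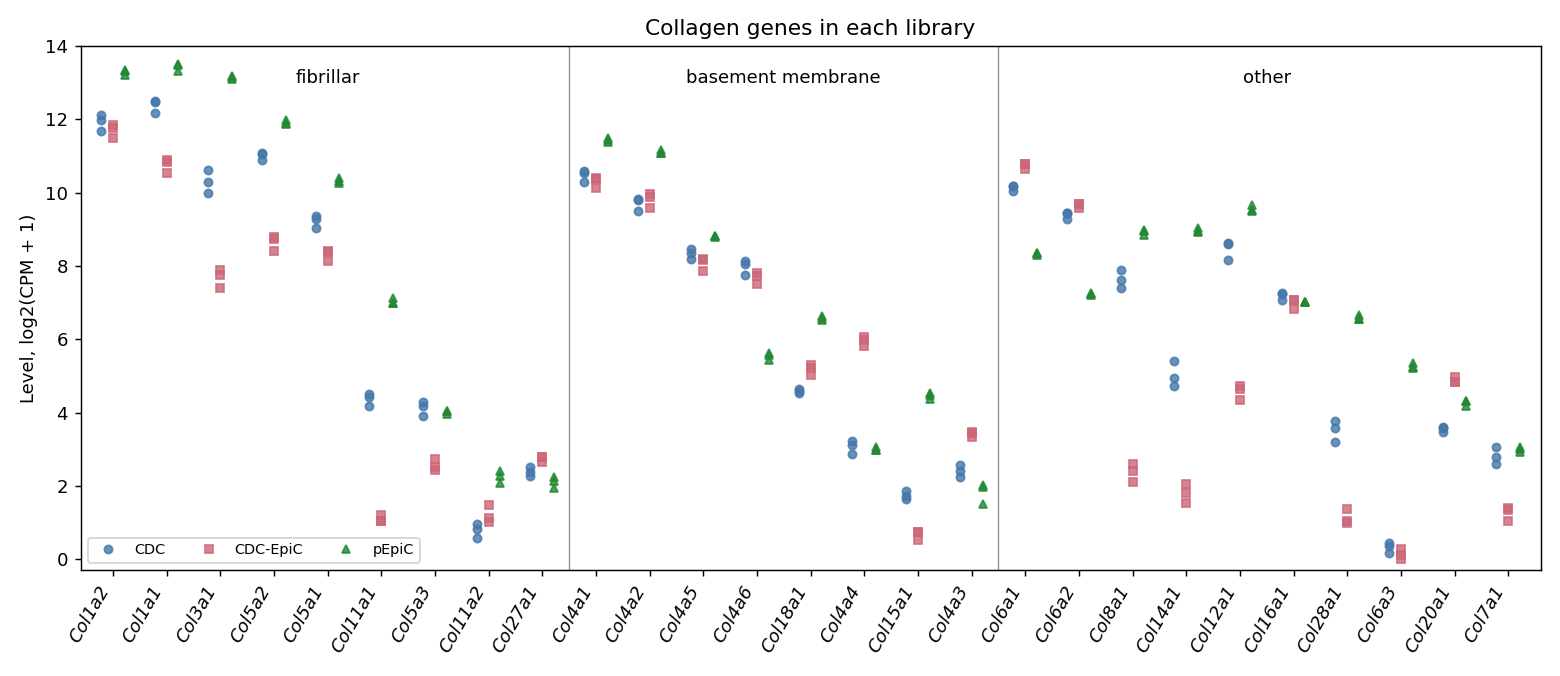
Level of the 27 collagen genes that reached 1 TPM in at least 1 kind of cell, as log2(CPM + 1) in each of the 9 libraries, with genes grouped by class and ordered by their highest mean TPM. Col3a1, Col11a1, Col8a1, Col12a1, Col14a1, Col28a1 and Col6a3 show wide gaps between pEpiC and CDC-EpiC, and Col6a1, Col6a2 and Col4a6 are examples that lie lowest in pEpiC.

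The family as a whole held 0.573 ± 0.0850% of all TPM in CDC, 0.398 ± 0.0402% in CDC-EpiC and 1.78 ± 0.0955% in pEpiC (SD, n = 3). Fibrillar collagens made up most of this in pEpiC, with 82.9 ± 0.364% of the family's TPM, against 69.2 ± 0.985% in CDC and 49.4 ± 1.29% in CDC-EpiC. Basement membrane collagens held 0.0767 ± 0.0107% of all TPM in CDC, 0.0768 ± 0.00890% in CDC-EpiC and 0.205 ± 0.00806% in pEpiC. Type VI collagen ran the other way, with 0.118 ± 0.00687% of TPM in CDC-EpiC, 0.0800 ± 0.00695% in CDC and 0.0299 ± 0.000818% in pEpiC. Thus the libraries of pEpiC held the largest TPM shares of fibrillar and type IV transcripts and the smallest of type VI. On this scale the median of all genes tested was itself 0.41 higher in pEpiC than in CDC, as a log2 difference of TPM + 1. It was 0.33 lower in CDC-EpiC than in pEpiC, so that rises in TPM in pEpiC are to be read against that shift. Nor are the shares corrected for the trend with transcript length between pEpiC and the other kinds, which is described below.

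**Figure D2:**
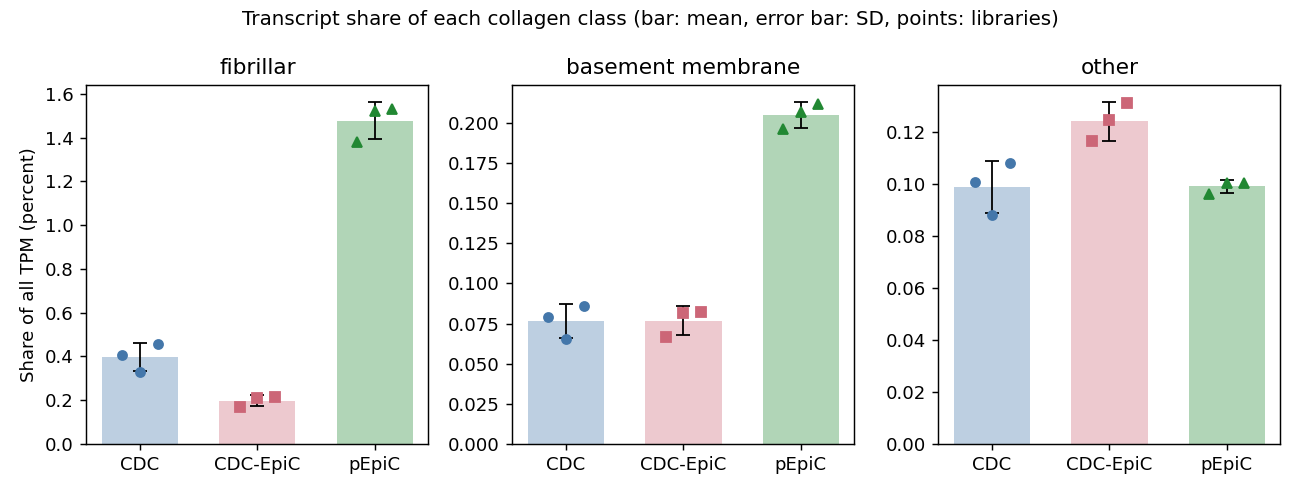
Percent of all TPM held by fibrillar, basement membrane and other collagens in each kind of cell, as bars for the mean, error bars for the SD and points for the 3 libraries. The pEpiC libraries lie above all others for fibrillar and basement membrane collagens, and CDC-EpiC lies highest for the other collagens at 0.124% of TPM, 0.118% being type VI.

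The sequence before the start of 4 genes is shown because these genes carry the main contrasts. Col3a1 and Col8a1 had far lower levels in the inhibitor-derived clone than in either other kind, whereas Col1a2 and Col6a1 were the 2 most abundant collagen genes of that clone. The stretches are from RefSeq on GRCm38 (mm10), are written 5′ to 3′ on the strand of the gene, and stop at annotated exons. Capitals mark CAGAC, a motif bound by SMAD proteins, the transcription factors of TGF-beta signalling, and TATAAA, both searched on either strand.
Col3a1, chr1:45311288-45311537, plus strand: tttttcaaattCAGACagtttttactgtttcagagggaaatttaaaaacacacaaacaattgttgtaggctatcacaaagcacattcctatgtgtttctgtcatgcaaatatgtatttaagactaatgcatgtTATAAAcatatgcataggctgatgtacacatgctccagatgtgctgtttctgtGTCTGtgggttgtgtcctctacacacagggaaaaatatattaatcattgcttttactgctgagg
Col8a1, chr16:57754738-57754987, minus strand: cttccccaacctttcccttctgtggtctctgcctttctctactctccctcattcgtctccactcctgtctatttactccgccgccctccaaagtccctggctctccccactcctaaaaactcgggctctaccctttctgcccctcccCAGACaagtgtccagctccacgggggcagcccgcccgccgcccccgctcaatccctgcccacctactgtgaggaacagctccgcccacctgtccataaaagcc
Col1a2, chr6:4505370-4505492, plus strand: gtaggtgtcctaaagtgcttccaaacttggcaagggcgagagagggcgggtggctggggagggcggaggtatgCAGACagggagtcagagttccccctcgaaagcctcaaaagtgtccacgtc
Col6a1, chr10:76726169-76726294, minus strand: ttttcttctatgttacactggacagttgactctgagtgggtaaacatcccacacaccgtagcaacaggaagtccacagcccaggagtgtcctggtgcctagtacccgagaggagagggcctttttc

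Promoter sequences were at hand for 35 of the 44 genes, in 38 windows of 250 bases before the start. CAGAC was present in 17 of the 38 windows (44.7%) and in 42.2% of all 32851 RefSeq windows of that length, and TATAAA in 5 of 38 (13.2%) against 12.4% of all. These shares of the family lay near those of all genes. Among the genes shown above, Col3a1, Col8a1 and Col1a2 held CAGAC and Col6a1 did not. Col1a2 was lower in the clone than in pEpiC (log2 -1.58) and did not pass against CDC (log2 -0.23). Whether the motif bears on these levels was not tested, and a match is a description of the letters rather than of a bound site.

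Between pEpiC and CDC, 34 of the 44 genes had enough counts to be tested, and the family leaned towards higher levels in pEpiC. The quasi-likelihood test of edgeR, with p-values adjusted over all 13526 genes, called 29 of the 34 (78.3% of all genes), of which 23 were higher in pEpiC and 6 lower, where 39.8% and 38.5% of all genes passed in those directions. At a difference of at least 2-fold, 19 were higher and 3 lower, against 15.7% and 14.4% of all genes. The fitted differences had a median of 1.05 on the log2 CPM scale over the 34 genes and 0.02 over all genes. Col6a3, Col6a6, Col8a2, Col13a1, Col19a1 and Col24a1 had at most 8 counts in any CDC library. They entered the test on their pEpiC counts alone and could only be called higher. The 23, the 19 and the median include them, and so overstate the lean. For 29 of the 34 genes the libraries of the 2 kinds did not overlap, which held for 81.5% of all genes tested.

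Collagen messengers are long, and transcript length moved with this comparison. The log2 difference between pEpiC and CDC rose by 0.447 per doubling of transcript length over 10685 genes, but by only 0.0172 between CDC-EpiC and CDC. For CDC-EpiC against pEpiC the slope was -0.441 per doubling. Among genes with more than 100 counts, the median length implied by the deposited values was 6513 bases for 25 collagen genes and 2934 bases for all 10870. With an offset for length in the same test, 21 collagen genes were higher and 9 lower in pEpiC (40.9% and 33.9% of all genes), the median log2 difference was 0.54 against 0.07 for all genes, and 13 genes were higher and 4 lower by at least 2-fold (14.8% and 10.1% of all genes). Col6a3, Col6a6, Col8a2, Col13a1, Col19a1 and Col24a1 were again among the 21 and the 13. Both counts and the median of 0.54 therefore overstate the lean as well. For fibrillar collagens the median with the offset was 0.77, with 8 higher and 2 lower of 10, Col24a1 being among the 8. For basement membrane collagens it was 0.21, with 4 higher and 3 lower of 8. What gave rise to the length trend was not tested.

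Between CDC-EpiC and CDC, 25 of 29 tested collagen genes passed the same test (68.8% of all genes), of which 10 were higher in the clone and 15 lower, where 34.2% and 34.6% of all 12976 genes passed in those directions. With the length offset these were 10 and 16 (34.7% and 35.7% of all genes). At a difference of at least 2-fold, 5 were higher (9.33% of all genes) and 11 lower (12.4% of all genes). Col6a6 and Col9a3, with at most 8 counts in any CDC library, entered on their clone counts alone and could only be called higher. The libraries did not overlap for 24 of the 29 genes, against 72.1% of all genes. The fibrillar collagens had a median log2 difference of -1.63, with 2 higher and 6 lower of 9 tested, whereas the basement membrane collagens had a median of -0.04, with 3 higher and 3 lower of 8. All genes tested had a median of 0.00267.

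Between CDC-EpiC and pEpiC, 31 of 34 tested collagen genes passed (81.9% of all genes), of which 7 were higher in the clone and 24 lower, where 40.3% and 41.5% of all 13547 genes passed. With the length offset these were 8 and 23 (36.3% and 44% of all genes). At a difference of at least 2-fold, 22 were lower (20.1% of all genes) and 5 higher (15.8% of all genes), and the libraries did not overlap for 31 of 34 (84% of all genes). Col6a3, Col8a2, Col13a1, Col19a1 and Col24a1, with at most 5 counts in any CDC-EpiC library, entered on their pEpiC counts alone. They could only be called lower. The median log2 difference was -1.61 over the collagen genes and -0.02 over all genes, or -1.24 and -0.09 with the length offset. The comparisons share libraries, so each one's values are given side by side below and not as separate evidence.

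**Figure D3:**
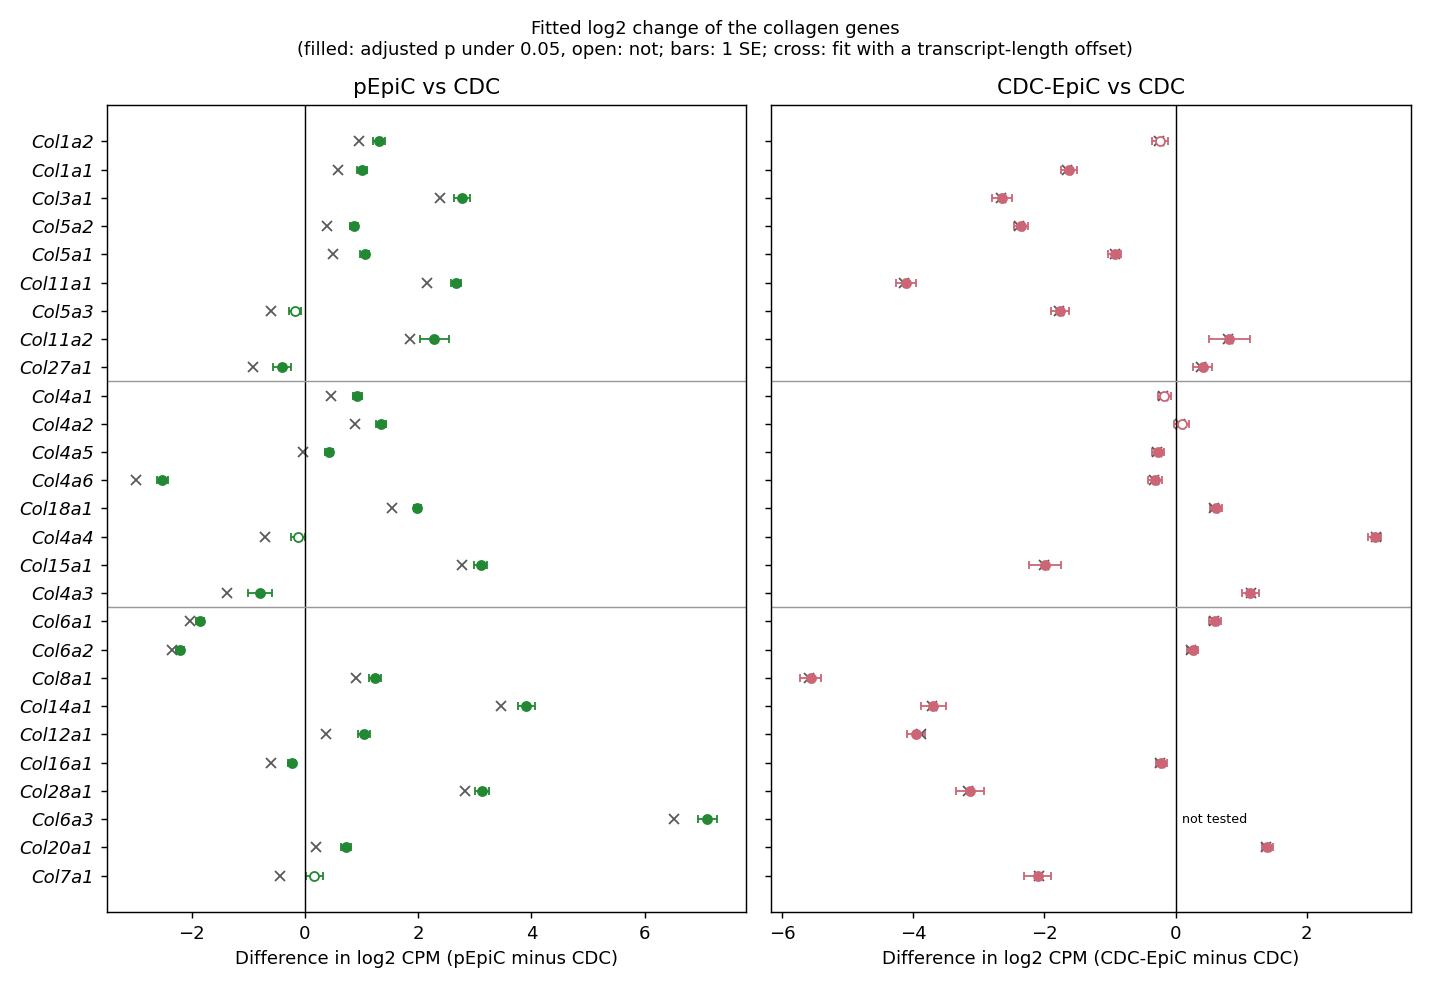
Fitted log2 difference in CPM of the 27 collagen genes for pEpiC against CDC and for CDC-EpiC against CDC, with bars of 1 SE, filled points for adjusted p under 0.05, open points for the rest and crosses for the fit with a transcript-length offset. In the comparison of pEpiC the crosses lie to the left of the points, as for Col4a5 at 0.43 and -0.033, and in that of CDC-EpiC they lie close to them.

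Type I collagen, the main collagen of scars and tendon, is built of 2 chains from Col1a1 and 1 from Col1a2. Col1a1 stood at 5655, 4579 and 5782 CPM in CDC libraries 1 to 3, at 1494, 1887 and 1831 CPM in CDC-EpiC and at 10161, 11322 and 11733 CPM in pEpiC. The 3 kinds did not overlap, with the clone lowest. The fitted log2 difference from CDC was 1.01 (SE 0.0945, adjusted p = 4.28e-06 by edgeR) in pEpiC, or 0.59 with the length offset, and -1.63 (SE 0.116, adjusted p = 7.49e-09) in CDC-EpiC. Col1a2 stood at 4019, 3299 and 4427 CPM in CDC, at 2870, 3665 and 3487 CPM in CDC-EpiC and at 9463, 10150 and 10360 CPM in pEpiC. Here the clone overlapped CDC, and only pEpiC stood apart from both. The log2 difference from CDC was 1.31 (SE 0.0985, adjusted p = 8.8e-07) in pEpiC, or 0.96 with the length offset, and -0.23 (SE 0.118, adjusted p = 0.0915) in CDC-EpiC. The latter passed the threshold without CDC library 2 (-0.35) or without CDC-EpiC library 2 (-0.32), by DESeq2 (-0.24) and with the length offset (-0.25).

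Type III collagen, which co-assembles with type I in stretchable tissues, comes from Col3a1 alone. Col3a1 stood at 1262, 1006 and 1562 CPM in CDC, at 167, 236 and 214 CPM in CDC-EpiC and at 8769, 9057 and 9198 CPM in pEpiC. No library of one kind reached the range of another. It was 6.85-fold higher in pEpiC than in CDC (log2 2.78, SE 0.135, adjusted p = 4.41e-08 by edgeR), 6.23-fold lower in CDC-EpiC than in CDC (log2 -2.64, SE 0.152, adjusted p = 6.21e-10) and 43.9-fold lower in CDC-EpiC than in pEpiC (log2 -5.46, SE 0.129, adjusted p = 2.64e-10). With the length offset the first of these log2 differences was 2.39 and the last was -5.09. Its share of the family's TPM was 21.8 ± 0.451% in pEpiC, 6.96 ± 0.789% in CDC and 1.70 ± 0.130% in CDC-EpiC.

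Type V collagen, which sets the diameter of type I fibrils, is made from Col5a1, Col5a2 and Col5a3. Col5a1 stood at 656, 527 and 621 CPM in CDC, at 282, 331 and 340 CPM in CDC-EpiC and at 1218, 1286 and 1358 CPM in pEpiC. Col5a2, which lies 24.6 kb from Col3a1 on chromosome 1, stood at 2140, 1883 and 2144 CPM in CDC, at 342, 440 and 422 CPM in CDC-EpiC and at 3731, 3843 and 4065 CPM in pEpiC. For both genes the 3 kinds were apart, pEpiC highest and the clone lowest. The log2 difference of CDC-EpiC from CDC was -0.93 (SE 0.0995, adjusted p = 8.11e-07 by edgeR) for Col5a1 and -2.36 (SE 0.108, adjusted p = 4.06e-11) for Col5a2. That of pEpiC from CDC was 1.05 (SE 0.0857) for Col5a1 and 0.87 (SE 0.0711) for Col5a2, and 0.50 and 0.40 with the length offset. Col5a3 was far scarcer, at 4.74 ± 0.817 TPM in CDC, 1.49 ± 0.150 TPM in CDC-EpiC and 5.95 ± 0.302 TPM in pEpiC. In the clone it was lower by log2 -1.76 (SE 0.133, adjusted p = 1.54e-08), while its log2 difference of pEpiC from CDC was -0.17 (SE 0.102, adjusted p = 0.148), -0.61 with the length offset, -0.28 without CDC library 2 and 0.29 on log2(TPM + 1), all past the threshold.

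The minor fibrillar collagens of cartilage were also present. Col11a1, a partner of type II collagen there, was at 4.83 ± 0.412 TPM in CDC, 0.293 ± 0.0513 TPM in CDC-EpiC and 43.7 ± 2.24 TPM in pEpiC. Its log2 difference from CDC was 2.67 (SE 0.0898, adjusted p = 4.06e-09 by edgeR) in pEpiC and -4.11 (SE 0.154, adjusted p = 4.16e-12) in CDC-EpiC, where 23 to 30 counts per library remained. Col11a2, its companion chain, was at 0.233 ± 0.0702 TPM in CDC, 0.427 ± 0.0961 TPM in CDC-EpiC and 1.56 ± 0.200 TPM in pEpiC, so that unlike Col11a1 it was not lowest in the clone. Its log2 difference of CDC-EpiC from CDC was 0.82 (SE 0.306, adjusted p = 0.0269), and the call was lost without CDC library 1 (0.86) or 3 (0.60), without CDC-EpiC library 2 (0.55) and by DESeq2 (0.82). Col27a1 was near 1 TPM throughout, at 0.980 ± 0.0721 TPM in CDC, 1.45 ± 0.133 TPM in CDC-EpiC and 1.05 ± 0.163 TPM in pEpiC. Its log2 difference of CDC-EpiC from CDC was 0.41 (SE 0.144, adjusted p = 0.0188), lost without CDC library 1 (0.35) or CDC-EpiC library 2 or 3 (both 0.37). Its log2 difference of pEpiC from CDC, -0.41 (SE 0.159, adjusted p = 0.0357), turned to 0.050 on log2(TPM + 1) and missed the threshold by DESeq2 (-0.40), without CDC library 2 (-0.34) or 3 (-0.42) and without pEpiC library 1 (-0.43) or 3 (-0.32).

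Type IV collagen is made from 6 genes that lie head to head in 3 pairs. Col4a1 and Col4a2 give the common network of nearly all basement membranes, and their starts lie 22 bases apart, both included, on chromosome 8. The gene records overlap across these bases, which are therefore no gap between them. The stretch across both starts is shown because both genes start within it, with capitals for the bases from the Col4a2 start to the Col4a1 start on the plus strand.
Col4a1 and Col4a2, chr8:11312801-11312830, plus strand: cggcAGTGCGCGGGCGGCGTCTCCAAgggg
Col4a1 stood at 1469, 1243 and 1534 CPM in CDC, at 1107, 1355 and 1325 CPM in CDC-EpiC and at 2676, 2748 and 2884 CPM in pEpiC. Col4a2 stood at 909, 723 and 891 CPM in CDC, at 764, 1006 and 935 CPM in CDC-EpiC and at 2147, 2169 and 2289 CPM in pEpiC. For both genes the clone overlapped CDC, and pEpiC lay above both. The log2 difference of pEpiC from CDC was 0.92 (SE 0.0817, adjusted p = 2.76e-06 by edgeR) for Col4a1 and 1.34 (SE 0.0878, adjusted p = 3.27e-07) for Col4a2, or 0.45 and 0.89 with the length offset. That of CDC-EpiC from CDC was -0.17 (SE 0.103, adjusted p = 0.156) for Col4a1, which passed the threshold without CDC library 2 (-0.26), and 0.09 (SE 0.112, adjusted p = 0.467) for Col4a2.

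Col4a3 and Col4a4 code for chains of the mature kidney and lung basement membrane and were the basement membrane genes that rose most in the clone. Col4a4 was at 1.53 ± 0.255 TPM in CDC, 12.7 ± 1.26 TPM in CDC-EpiC and 1.87 ± 0.0451 TPM in pEpiC. Its 3 CDC-EpiC libraries, at 55.4, 61.9 and 65.7 CPM, lay above all others, whose highest was 8.28 CPM. The log2 difference of CDC-EpiC was 3.03 from CDC (SE 0.105, adjusted p = 1.72e-12 by edgeR) and 3.12 from pEpiC (SE 0.0801, adjusted p = 4.51e-10). Col4a3 was at 0.887 ± 0.152 TPM in CDC, 2.06 ± 0.147 TPM in CDC-EpiC and 0.723 ± 0.187 TPM in pEpiC, a log2 CPM difference of 1.14 (SE 0.134, adjusted p = 2.08e-06) between the clone and CDC. Between pEpiC and CDC, Col4a3 was lower by log2 -0.79 (SE 0.205, adjusted p = 0.00489), which did not pass on log2(TPM + 1) at -0.13, and Col4a4 did not pass at -0.12 (SE 0.121, adjusted p = 0.366), -0.71 and past the threshold with the length offset and 0.19 on log2(TPM + 1).

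Col4a5 and Col4a6, the chains of the X chromosome, whose gene records lie 1.3 kb apart, went separate ways in pEpiC. Col4a5 stood at 326, 292 and 349 CPM in CDC, at 233, 290 and 284 CPM in CDC-EpiC and at 439, 453 and 449 CPM in pEpiC. Col4a6, found in smooth muscle basement membranes, stood at 263, 216 and 282 CPM in CDC, at 181, 223 and 210 CPM in CDC-EpiC and at 42.1, 46.9 and 48.0 CPM in pEpiC. The pEpiC libraries were the highest for Col4a5 and by far the lowest for Col4a6. The log2 difference of pEpiC from CDC was -2.52 (SE 0.101, adjusted p = 1.2e-08 by edgeR) for Col4a6. For Col4a5 it was 0.43 (SE 0.0707, adjusted p = 0.000282), but -0.033 with the length offset. In CDC-EpiC the log2 differences from CDC were small, at -0.27 (SE 0.0963, adjusted p = 0.0227) for Col4a5 and -0.32 (SE 0.103, adjusted p = 0.0132) for Col4a6. The first missed the threshold without CDC library 1 (-0.26) or 3 (-0.21) or CDC-EpiC library 1 (-0.18), and the second without CDC library 3 (-0.23) or CDC-EpiC library 1 (-0.24). Neither passed on log2(TPM + 1), at -0.19 for Col4a5 and -0.23 for Col4a6.

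Col15a1 and Col18a1, whose products link basement membranes to the matrix and yield antiangiogenic fragments, were both highest in pEpiC. Col18a1 was at 7.25 ± 0.418 TPM in CDC, 12.4 ± 1.29 TPM in CDC-EpiC and 36.9 ± 1.56 TPM in pEpiC. Its log2 CPM difference from CDC was 1.99 (SE 0.0620, adjusted p = 2.46e-09 by edgeR) in pEpiC and 0.61 (SE 0.0882, adjusted p = 1.79e-05) in CDC-EpiC. Col15a1 was at 0.833 ± 0.131 TPM in CDC, 0.217 ± 0.0416 TPM in CDC-EpiC and 10.1 ± 0.838 TPM in pEpiC. Unlike Col18a1 it was lower in the clone than in CDC, by log2 -1.99 (SE 0.249, adjusted p = 4.14e-06), and it was higher in pEpiC by log2 3.11 (SE 0.115, adjusted p = 7.04e-09).

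Type VI collagen is assembled from 1 chain each of Col6a1, Col6a2 and Col6a3 or one of its relatives. Col6a1 stood at 1160, 1054 and 1158 CPM in CDC, at 1612, 1763 and 1760 CPM in CDC-EpiC and at 329, 325 and 311 CPM in pEpiC. Col6a2, 85.2 kb away on chromosome 10, stood at 698, 616 and 691 CPM in CDC, at 758, 825 and 827 CPM in CDC-EpiC and at 151, 150 and 148 CPM in pEpiC. For both genes the clone was highest and pEpiC lowest, without overlap, the reverse of Col1a1 and Col3a1. The log2 difference of pEpiC from CDC was -1.85 (SE 0.0654, adjusted p = 5.56e-09 by edgeR) for Col6a1 and -2.20 (SE 0.0678, adjusted p = 2.3e-09) for Col6a2. That of CDC-EpiC from CDC was 0.60 (SE 0.0855, adjusted p = 1.59e-05) for Col6a1. It was 0.26 (SE 0.0846, adjusted p = 0.0133) for Col6a2, which missed the threshold without CDC library 2 (0.20) or without CDC-EpiC library 2 or 3 (both 0.23).

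Col6a3, the third chain, was almost absent from 2 of the 3 kinds. It had 3 to 8 counts per library in CDC, 0 to 5 in CDC-EpiC and 35.9, 39.6 and 37.1 CPM in pEpiC. Its mean was 9.64 ± 0.669 TPM in pEpiC, 0.050 ± 0.020 TPM in CDC and 0.0233 ± 0.0252 TPM in CDC-EpiC. The log2 CPM difference of pEpiC from CDC was 7.11 (SE 0.164, adjusted p = 3.64e-10 by edgeR). That of CDC-EpiC from pEpiC was -8.42 (SE 0.241, adjusted p = 9.07e-10). With so few counts on the low side, the size of both depended on the setting and the SE does not cover this. They were 6.51 and -7.82 with the length offset, and 3.34 and -3.38 on log2(TPM + 1), all past the threshold. CDC-EpiC against CDC was not tested for want of counts. Thus the Col6a3 transcripts were where Col6a1 and Col6a2 were lowest.

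Col8a1, a chain of the short-chain network of vessel walls, had the largest fall of the 26 named genes tested in the clone. It stood at 195, 167 and 234 CPM in CDC, at 3.32, 4.31 and 5.01 CPM in CDC-EpiC and at 458, 498 and 500 CPM in pEpiC. The kinds were far apart, with the clone lowest. The level in CDC-EpiC was 47.4-fold below CDC (log2 -5.57, SE 0.153, adjusted p = 1.58e-13 by edgeR) and 115-fold below pEpiC (log2 -6.85, SE 0.108, adjusted p = 3.45e-11). Between pEpiC and CDC the log2 difference was 1.24 (SE 0.107, adjusted p = 2.21e-06), or 0.90 with the length offset. That of CDC-EpiC from pEpiC was -6.53 with the offset.

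Of the fibril-associated collagens, Col12a1 and Col14a1, which coat type I fibrils in dense connective tissue, were lower in the clone. Col12a1 stood at 397, 285 and 388 CPM in CDC, at 19.5, 24.0 and 25.4 CPM in CDC-EpiC and at 736, 727 and 812 CPM in pEpiC. Col14a1 stood at 29.9, 25.7 and 41.7 CPM in CDC, at 2.48, 3.18 and 1.90 CPM in CDC-EpiC and at 490, 495 and 523 CPM in pEpiC. In both the kinds were apart, pEpiC highest. The log2 difference of CDC-EpiC from CDC was -3.96 (SE 0.136, adjusted p = 1.51e-12 by edgeR) for Col12a1 and -3.69 (SE 0.194, adjusted p = 2.08e-10) for Col14a1. That of pEpiC from CDC was 1.05 (SE 0.114, adjusted p = 1.33e-05) for Col12a1, or 0.37 with the length offset, and 3.91 (SE 0.149, adjusted p = 8.86e-09) for Col14a1, or 3.46 with it.

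Col16a1 and Col20a1 did not share this pattern. Col16a1 stood at 151, 134 and 154 CPM in CDC, at 112, 133 and 134 CPM in CDC-EpiC and at 128, 128 and 128 CPM in pEpiC. Its log2 difference from CDC was -0.23 (SE 0.0634, adjusted p = 0.00648 by edgeR) in pEpiC, which became 0.25 and past the threshold on log2(TPM + 1), and -0.22 (SE 0.0874, adjusted p = 0.0391) in CDC-EpiC, which missed the threshold without CDC library 1 (-0.19) or 3 (-0.18) or CDC-EpiC library 1 (-0.14) and on log2(TPM + 1) (-0.13). Col20a1 was at 2.54 ± 0.0681 TPM in CDC, 7.07 ± 0.30 TPM in CDC-EpiC and 5.96 ± 0.388 TPM in pEpiC. It was higher than in CDC by log2 1.4 (SE 0.0896, adjusted p = 2.09e-09) in the clone and by 0.73 (SE 0.0864, adjusted p = 2.46e-05) in pEpiC, the latter 0.20 and no longer past the threshold with the length offset.

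Col28a1 and Col7a1 complete the genes above 1 TPM. Col28a1, a chain known from the peripheral nervous system, was at 3.76 ± 0.949 TPM in CDC, 0.457 ± 0.139 TPM in CDC-EpiC and 48.0 ± 1.36 TPM in pEpiC. Its log2 CPM difference from CDC was 3.13 (SE 0.120, adjusted p = 9.22e-09 by edgeR) in pEpiC and -3.14 (SE 0.212, adjusted p = 4.08e-09) in CDC-EpiC. Col7a1, which makes the anchoring fibrils under stratified epithelia, was at 1.15 ± 0.182 TPM in CDC, 0.283 ± 0.0635 TPM in CDC-EpiC and 1.82 ± 0.116 TPM in pEpiC. It was lower in the clone than in CDC by log2 -2.10 (SE 0.207, adjusted p = 3.01e-07), while pEpiC differed from CDC by 0.16 (SE 0.150, adjusted p = 0.334), which became -0.45 with the length offset and 0.40 on log2(TPM + 1), both past the threshold.

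Partner chains of 1 collagen did not keep a fixed ratio across the kinds. The ratio of Col1a1 to Col1a2 in TPM was 1.2 ± 0.0471 in CDC, 0.458 ± 0.00453 in CDC-EpiC and 0.974 ± 0.0266 in pEpiC. The ratio of Col5a1 to Col5a2 was 0.237 ± 0.0111, 0.644 ± 0.0309 and 0.269 ± 0.00371 in the same order. That of Col4a1 to Col4a2 was 1.64 ± 0.0583, 1.37 ± 0.0508 and 1.23 ± 0.0104. Hence the clone had fewer Col1a1 transcripts for each Col1a2, and more Col5a1 for each Col5a2, than the other kinds. The ratio of Col6a1 to Col6a2 was 1.63 ± 0.0261 in CDC, 2.04 ± 0.00472 in CDC-EpiC and 2.06 ± 0.0389 in pEpiC. The ratio of Col6a3 to Col6a1 was 0.0496 ± 0.00287 in pEpiC, and in CDC and CDC-EpiC it rested on at most 8 counts of Col6a3. That of Col8a1 to Col8a2 is not given, because Col8a2 had 1 to 5 counts per library in CDC and CDC-EpiC. Among 18 comparisons of kinds over 6 pairs of chains, those of the first 4 pairs each gave a two-sided exact permutation p of 0.1 (0.113 adjusted over the 18), the smallest that 3 libraries against 3 can give, so none could reach the threshold. The exception was CDC-EpiC against pEpiC for Col6a1 to Col6a2 (exact permutation p = 0.4, libraries overlapping).

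**Figure D4:**
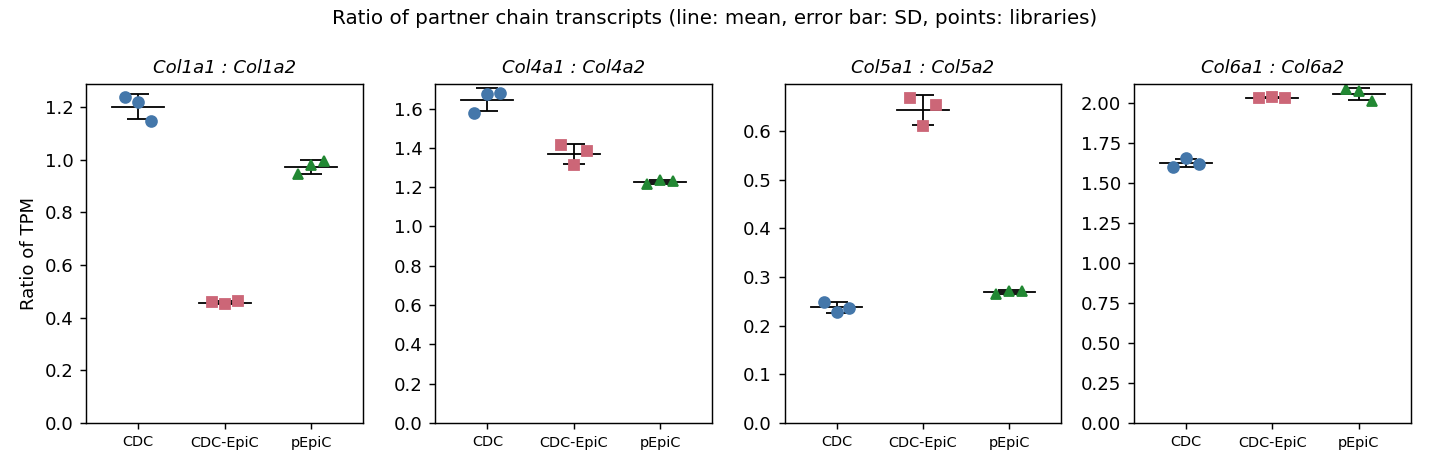
Ratio of the TPM of partner chains in each library, with the mean as a line and the SD as error bar, for Col1a1 to Col1a2, Col4a1 to Col4a2, Col5a1 to Col5a2 and Col6a1 to Col6a2. The 3 CDC-EpiC libraries lie between 0.453 and 0.462 for Col1a1 to Col1a2 and between 0.609 and 0.669 for Col5a1 to Col5a2, apart from the other kinds in both.

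The remaining 17 genes stayed below 1 TPM in every kind. Col25a1 and Col9a1 had at most 2 counts in any library. Col10a1 of growth-plate cartilage, Col2a1 of cartilage and Col17a1 of hemidesmosomes had at most 6. Col9a2 had at most 1 count in CDC, none in CDC-EpiC and 5 to 6 in pEpiC, and Col22a1 had none in either CDC or CDC-EpiC and 3 to 6 in pEpiC. Col2a1, Col9a1, Col9a2 and Col10a1 of cartilage were therefore near the limit of detection in all 9 libraries. Col13a1 had no count in CDC or CDC-EpiC and 23 to 35 in pEpiC, Col24a1 at most 2, none and 30 to 44, and Col19a1 2 to 7, none and 16 to 25 in CDC, CDC-EpiC and pEpiC. All 3 passed the test for pEpiC against CDC, but entered it on their pEpiC counts alone, so passing adds nothing to these counts. Col8a2 had 3 to 5 counts in CDC, 1 to 3 in CDC-EpiC and 28 to 43 in pEpiC and passed likewise, also admitted by pEpiC alone.

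Among the relatives of Col6a3, Col6a6 had at most 1 count in CDC, 14 to 18 in CDC-EpiC and 22 to 39 in pEpiC, and both rises over CDC passed. Col6a6 entered both tests on the counts of the other kind alone, so passing adds nothing to these counts. Col6a4 had 2 to 5, 9 to 16 and 3 to 7 counts, and Col6a5 3 to 5, 2 to 4 and 8 to 29, and neither was tested. Col9a3 had 5 to 8 counts in CDC, 13 to 21 in CDC-EpiC and 6 to 18 in pEpiC and was higher in the clone than in CDC (log2 1.39, SE 0.386, adjusted p = 0.00488 by edgeR). That test too was entered on the clone counts alone. Col23a1 had 9 to 14, 3 to 9 and 10 to 21 counts. It did not pass in pEpiC against CDC, and its comparisons with CDC-EpiC were not tested. Col26a1 had 18 to 37, 23 to 28 and 19 to 26 counts, with no comparison past the threshold. Fitted changes of genes at or under 3 counts in a whole group depend on the prior count and are no bounds, so none is given. With those genes set to a floor of 3 counts per library, the medians of the family stayed at 1.05, -0.23 and -1.61, as they must when only values at the ends move.

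The genes that make, cut and bind collagen were followed as 3 lists. Of 9 receptors tested, 7 were higher and 1 lower in pEpiC than in CDC, and of 7 tested in the clone against CDC, 1 was higher and 5 lower. The 7 include Lair1 (0 counts in CDC, 96, 32 and 41 in pEpiC) and Itga2 (at most 4, then 19, 35 and 15). Both entered on their pEpiC counts alone and could only be called higher. Over all genes 39.8% were higher and 38.5% lower in pEpiC than in CDC, and 34.2% and 34.6% in the clone, and each list here is to be read against these shares. Itga11, the integrin subunit that binds fibrillar collagen on fibroblasts, differed from CDC by log2 3.99 (SE 0.0767, adjusted p = 1.85e-10 by edgeR) in pEpiC and by -3.35 (SE 0.166, adjusted p = 1.07e-10) in CDC-EpiC. Ddr1, the discoidin receptor of epithelia, went the other way, at -0.78 (SE 0.0608) in pEpiC and 1.18 (SE 0.0982) in CDC-EpiC, both past the threshold. Mrc2, an uptake receptor for collagen, was at 1.23 (SE 0.0768) and -2.56 (SE 0.109).

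Of the procollagen proteinases and their enhancers, 5 of 7 tested were higher and 2 lower in pEpiC than in CDC, and 1 of 6 was higher and 5 lower in CDC-EpiC. Adamts3 entered the first comparison on its pEpiC counts alone, and Tll1 the second on its CDC counts alone. Adamts2, which removes the amino-terminal propeptide, differed from CDC by log2 1.63 (SE 0.0696, adjusted p = 1.85e-08 by edgeR) in pEpiC and -1.01 (SE 0.0969, adjusted p = 2.21e-07) in CDC-EpiC. Pcolce, the enhancer of carboxy-terminal cleavage, was higher in both, at 0.87 (SE 0.0647) and 0.52 (SE 0.0898). Of 13 genes for hydroxylation, folding and crosslinking, 6 were higher and 7 lower in pEpiC, and 2 were higher and 9 lower in the clone. The shares in pEpiC lie near the 39.8% and 38.5% of all genes. Plod2, the lysyl hydroxylase of telopeptides, was at log2 1.87 (SE 0.0792) in pEpiC and -1.65 (SE 0.0850) in CDC-EpiC against CDC. Serpinh1, the collagen chaperone, was at 0.43 (SE 0.0633) in pEpiC and did not pass in CDC-EpiC at 0.00379 (SE 0.0815, adjusted p = 0.97).

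Markers of other cells moved with these kinds, and their part in the collagen results was not tested. The 10 fibroblast markers summed to 764 to 980 TPM in CDC, 1879 to 2215 TPM in CDC-EpiC and 3606 to 3810 TPM in pEpiC, with Dcn alone at a mean of 1817 TPM in CDC-EpiC. Of the 10, 9 were higher in pEpiC than in CDC (39.8% of all genes) and Thy1 was lower. Pi16, with at most 7 counts in any CDC library, entered on its pEpiC counts alone. In the clone, Dcn, Pdgfra and Tcf21 were higher than in CDC and 6 of 9 tested were lower (34.6% of all genes), among them Lum at log2 -4.35 and Mfap5 at -5.19. Lum and Dpt entered that comparison on their CDC counts alone. The 10 mesothelial and epicardial markers summed to 571 to 632 TPM in CDC, 4869 to 5493 TPM in CDC-EpiC and 411 to 462 TPM in pEpiC. These sums rest mostly on Upk3b, Upk1b, Lrrn4 and Gpm6a. Against CDC, 4 of the 10 were higher in pEpiC, namely Lrrn4, Krt7, Wt1 (log2 2.30) and Aldh1a2 (log2 3.07), and 6 were lower. In the clone 7 were higher than in CDC and 2 lower, namely Krt19 (log2 -0.48) and Tbx18 (log2 -0.72), and Aldh1a2 was lower in the clone than in pEpiC (log2 -3.32). The 10 smooth muscle markers summed to 1943 to 2257 TPM in CDC, 309 to 428 TPM in CDC-EpiC and 1237 to 1278 TPM in pEpiC, and all 7 tested were lower in the clone than in CDC (34.6% of all genes). Des and Myh11 among them entered on their CDC counts alone.

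The 10 macrophage markers summed to 88.7 to 94.4 TPM in CDC, 33.7 to 37.0 TPM in CDC-EpiC and 611 to 1677 TPM in pEpiC, with pEpiC library 1 the highest. None of the 10 was at 0 in pEpiC, whereas 3 to 4 were in CDC and 4 to 5 in CDC-EpiC. Without that library the log2 difference of pEpiC from CDC was 2.79 for Col3a1, 7.14 for Col6a3 and -1.87 for Col6a1, while the remaining pEpiC libraries still held 611 and 690 TPM of these markers. Of the 10 cardiomyocyte markers, Tnnt2 was at a mean of 299 TPM in pEpiC, 14.7 TPM in CDC and 13.8 TPM in CDC-EpiC, whereas Myh6, Myh7, Actc1, Myl2 and Pln were each below 0.1 TPM in pEpiC. Tnni3 was lower in pEpiC than in CDC (log2 -1.12), with 20, 20 and 15 counts against 49, 44 and 18. CDC library 3 thus lay near pEpiC for Tnni3. The 10 endothelial markers summed to 8.69 to 19.7 TPM over all libraries.

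CDC libraries 1 and 2, which held the blood and liver transcripts, were also left out together, with the lone CDC library assumed to vary like the other group. The collagen genes past the threshold were then 23 higher and 6 lower in pEpiC, and 9 higher and 16 lower in the clone. The calls of Col27a1 were lost in pEpiC (log2 -0.41) and in the clone (0.42), and that of Col6a2 in the clone (0.21). Passing instead were Col5a3 (-0.34) and Col7a1 (0.43) in pEpiC and Col1a2 (-0.41) in the clone.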

How the data were processed

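RNA of CDC, CDC-EpiC and pEpiC (3 libraries each) was sequenced in paired 100-base reads (BGISEQ-500). The authors deposited 1 table with expected counts per gene, of which 30.3% of values are not whole, FPKM, which correct for library total and length of the transcript, and TPM. Per the submitters' processing notes, mm10, HISAT2 2.0.4, Bowtie2 2.2.5, RSEM 1.2.12 and DESeq2 1.4.5 were used, in no stated role. The annotation and use of strand are not given in the sources used here, so reads shared by overlapping genes are uncertain. The mean columns of the authors were not used.

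Each library column was assigned to the sample whose title its name carries, and no column of values was left unassigned. Expected counts were rounded and fitted for each of 3 pairs of kinds (6 libraries) in edgeR 4.0.16 under R 4.3.3, after filterByExpr (minimum count 10, minimum total 15) and TMM normalization, and tested with glmQLFTest after glmQLFit. The Benjamini-Hochberg adjustment ran over all genes tested, with 0.05 as the threshold. Standard errors are those of fitted log2 changes. CPM are TMM-normalized over all 9 libraries, and TPM are used to compare genes. Transcript length was derived from the deposited counts and FPKM. A fit with a sample-specific length offset, DESeq2 1.42.0, limma 3.58.1 on log2(TPM + 1) and log2(TPM + 0.1), other filters and scalings, a replicate block and fits without each library were alternatives. The fits were tested on simulated counts. Python 3.11.15, pandas 2.3.3, NumPy 2.4.6 and matplotlib 3.10.9 were used for reading, tables and figures.

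Genes with a mean of at least 1 TPM in a kind are named with values, and those at 50 TPM or more with every library. The members and gene lists were chosen with earlier results of these data known. Loci and promoter sequences are from RefSeq for GRCm38, and exons from GENCODE. Depth ran from 22008833 to 22756045 expected counts per library, and counting error alone is small for all but the scarce genes.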

Additional observations from a re-analysis of the deposited data

How the results depend on the processing

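Of 1331 refitted log2 changes of the 27 named genes, 1263 kept direction and side of the threshold, 39 lost the call, 15 gained it and 14 changed sign. Changes of sign in pEpiC against CDC were those of Col16a1 (0.25 and 0.26), Col27a1 (0.050 and 0.087), Col4a4 (0.19 and 0.29) and Col5a3 (0.29 and 0.34) on log2(TPM + 1) and log2(TPM + 0.1), where the median of all genes is shifted by 0.41, and of Col4a5 (-0.033) and Col7a1 (-0.45) with the length offset. In CDC-EpiC against CDC, Col4a2 changed sign without CDC library 2 (-0.00487) or CDC-EpiC library 2 (-0.00229), and in CDC-EpiC against pEpiC, Col16a1 did with the length offset (0.31) or without CDC-EpiC library 1, its values without each library running from -0.059 to 0.058. The cause of these was not tested. Counts of collagen genes past the threshold without each library were 23 to 24 higher and 5 to 6 lower in pEpiC against CDC, 7 to 10 and 12 to 17 in CDC-EpiC against CDC, and 7 to 8 and 23 to 25 in CDC-EpiC against pEpiC. Over the other settings they ran from 17 to 26 and 3 to 9, 8 to 11 and 12 to 16, and 7 to 8 and 19 to 29, and the 3 lower genes of pEpiC against CDC came with limma on either TPM scale. As percent of expected counts in place of TPM, which gives long messengers more weight, all collagens held 1.81, 1.16 and 4.43 in CDC, CDC-EpiC and pEpiC, fibrillar 1.29, 0.606 and 3.61, basement membrane 0.279, 0.277 and 0.570, and other collagens 0.248, 0.273 and 0.256. Leaving out a library put the TPM share of all collagens at 0.534 to 0.618, 0.384 to 0.421 and 1.75 to 1.84 percent, of fibrillar at 0.367 to 0.431, 0.189 to 0.211 and 1.45 to 1.53, of basement membrane at 0.0720 to 0.0825, 0.0740 to 0.0819 and 0.202 to 0.210, and of other collagens at 0.0945 to 0.104, 0.121 to 0.128 and 0.0985 to 0.101. With the library number as a replicate block, the counts stayed at 23 and 6, 10 and 15, and 7 and 24. Deviations of same-numbered libraries correlated at -0.101 to 0.162 and those of others at -0.158 to 0.133. These deviations are tied to each other within the 3 libraries of a kind, so they cannot tell whether the numbers pair libraries.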
